A study of Mus musculus with 11 samples.

Results

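The 10 genes described here make, regulate and break down polyamines. They were taken from the 55487 listed genes by name, and each of the 10 names matched 1 row. The set was chosen by its link to Amd1, which was itself selected on its low level in Fgf21-knockdown tumours. The values of that comparison are therefore a description, and no test outcome in it counts as support. The study addressed how FGF21 made by tumour cells affects T cells in MC38 tumours, MC38 being a mouse colon carcinoma line. Its 11 bulk RNA-seq libraries form 4 groups. T cells sorted from tumours of the Fgf21-knockdown line make up shFgf21 sorted (2 libraries). They stand against T cells sorted from tumours taken to be of the control-hairpin line (shNC sorted, 3 libraries). Libraries labelled as tumour from the knockdown line (shFgf21 tumour, 3 libraries) stand against those from the control line (shNC tumour, 3 libraries).

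The shNC libraries carry the genotype label WT, so the control-hairpin line is taken to stand in for the wild type. Titles of the shNC sorted libraries do not state the hairpin, so their origin from that line is inferred from the label. Replicate 2 of shFgf21 sorted is labelled with FGF22 in place of FGF21, and was placed by its title. Sorted titles string together what may be animal numbers, without a word on pooling. The labels name no mouse strain or age, no hairpin sequence and no number of clones per line. Libraries held 14944013 to 19099350 counts. Where a gene has 0 counts, up to 3 counts remain possible, counting error only. By raw library totals this is 0.157 to 0.201 CPM (counts scaled to the library's depth), whereas the other CPM values also use the scaling factors given under processing.

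The sorted libraries were not pure in T cell transcripts. Summed over 12 T cell markers they held 451 to 556 CPM in shFgf21 and 428 to 805 CPM in shNC sorted libraries. Summed over 12 macrophage and monocyte markers they held 18006 to 19284 CPM in shFgf21 and 11449 to 14218 CPM in shNC sorted libraries. The 6 stromal markers summed to 12250 to 14523 CPM in sorted libraries, against 14403 to 17781 CPM in tumour libraries. In the tumour libraries the 12 macrophage markers summed to only 33.9 to 47.8 CPM. The 12 T cell markers summed to 1.47 to 1.95 CPM in shFgf21 tumours, against 3.68 to 16.8 CPM in shNC tumours, without overlap. Of these, Cd3e, Cd8b1 and Cd2 had no count in any tumour library. The part of that difference in the tumour values below was not tested. A sorted level below is therefore a level in a mixture. In such bulk libraries, fewer cells of a type and less RNA per cell cannot be told apart.

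Polyamines are small, positively charged molecules that bind nucleic acids and are needed for growth. Ornithine decarboxylase (Odc1) makes putrescine, and S-adenosylmethionine decarboxylase (Amd1, Amd2) supplies the aminopropyl groups that spermidine synthase (Srm) and spermine synthase (Sms) add to it. Antizyme (Oaz1) binds ornithine decarboxylase and targets it for degradation, and antizyme inhibitor (Azin1) binds antizyme and releases the enzyme. Spermidine/spermine acetyltransferase (Sat1) with polyamine oxidase (Paox) returns spermine and spermidine to their precursors. Spermine oxidase (Smox) turns spermine directly back into spermidine. In tumours and in activated T cells several synthesis genes are known as targets of MYC, and arginase in macrophages feeds ornithine into the route.

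Several of these genes have near-identical copies elsewhere in the genome, and this decides how their counts can be read. A copy was taken as a listed gene whose transcript matched a member's at 95% identity or more over at least 300 bases (GENCODE M21 transcripts on mm10). Amd1 (chr10:40287458-40302188, minus strand, mm10) has 8 exons. Amd2 (chr10:35708675-35711892, minus strand) is a single exon that matches the Amd1 transcript over 3202 aligned bases with 14 differing positions. Both coding sequences are 1005 bases long and differ at 1 position, G796C, counted from 1 at the A of the start codon with the Amd1 base first. The stretch around that position, coding bases 736 to 855, is shown for both genes because it holds the only coding base that tells their reads apart, in capitals. It lies at chr10:40290127-40290246 for Amd1 and at chr10:35710705-35710824 for Amd2, both on the minus strand of mm10.
Amd1: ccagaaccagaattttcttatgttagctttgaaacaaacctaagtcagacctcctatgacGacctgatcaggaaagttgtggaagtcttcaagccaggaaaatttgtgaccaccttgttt
Amd2: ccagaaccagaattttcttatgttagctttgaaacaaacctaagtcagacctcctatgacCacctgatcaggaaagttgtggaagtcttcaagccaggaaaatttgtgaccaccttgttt

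A processed pseudogene, Amd-ps3, matches Amd1 over the same 1005 bases at 99.9% identity, and 3 others (Amd-ps4, Amd-ps1 and Amd-ps7) match at 99.5%, 96.7% and 97.3% but hold only 15 to 50 counts in all 11 libraries together. No listed row overlaps Amd1. Of all stretches of 100 bases in the Amd1 transcript checked (3204 bases), 76.4% occur unchanged in a transcript of another gene, and so do 72.9% of those in Amd2. The deposited values imply a length of 5014 bases for the Amd1 row, so this check did not cover all of it. No source used here says how reads that match several genes were counted. Outside the transcripts the genes part. The 250 bases upstream of each RefSeq start (GRCm38.p6, chr10:40302189-40302438 for Amd1 and chr10:35711892-35712141 for Amd2, minus strand, shown because the copies differ here) had 64.4% and 37.6% G and C. Their longest shared run was 7 bases.
Amd1 upstream: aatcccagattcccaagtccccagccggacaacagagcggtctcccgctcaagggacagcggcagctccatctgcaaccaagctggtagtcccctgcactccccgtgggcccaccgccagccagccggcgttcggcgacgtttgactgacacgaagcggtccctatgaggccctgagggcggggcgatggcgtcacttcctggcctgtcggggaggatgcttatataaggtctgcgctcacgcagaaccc
Amd2 upstream: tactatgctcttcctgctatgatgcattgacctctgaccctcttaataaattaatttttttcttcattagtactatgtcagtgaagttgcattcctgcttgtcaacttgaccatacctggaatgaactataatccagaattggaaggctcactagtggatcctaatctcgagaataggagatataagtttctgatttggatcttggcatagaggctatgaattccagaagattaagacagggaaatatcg

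Oaz1 (chr10:80826656-80829290, plus strand) has a processed pseudogene, Oaz1-ps, at chr17:17345456-17346140 that matches it at 99.7% over 685 bases. Coding position 125 differs between them (G125C, counted from 1 at the A of the start codon, with the Oaz1 base first). The 60 bases around it, coding bases 96 to 155, are shown with that base in capitals. In Oaz1 they span a splice junction within chr10:80826855-80828245, plus strand, and in Oaz1-ps they lie at chr17:17345986-17346045, minus strand (mm10).
Oaz1: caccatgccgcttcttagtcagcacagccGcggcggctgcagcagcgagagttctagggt
Oaz1-ps: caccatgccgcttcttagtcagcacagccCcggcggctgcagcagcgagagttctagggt
Antizyme is known for a frameshift during translation, which polyamines promote and which full-length protein needs. The frameshift codons, in capitals, sit in a stretch of 45 bases at chr10:80828271-80828315, plus strand, and the whole stretch is identical in Oaz1-ps, so reads lying within it cannot be assigned to either.
Oaz1 frameshift stretch: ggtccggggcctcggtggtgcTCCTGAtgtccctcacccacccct

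Among the other members, the coding sequence of Sms (1101 bases) is repeated without a difference in Sms-ps, Paox matches Gm19680 at 99.9% over 1358 bases, and Odc1 has 5 copies at 95.1% to 97.8%, the most abundant being Gm7993 and Gm17709. Sat1 has Gm5552 and Gm46610, with 17 and 125 counts in all libraries together. The first 359 bases of Azin1 are covered by an antisense row, Gm49077, and Paox overlaps Echs1 on the opposite strand. Reads of such pairs cannot be told apart without strand, and no source used here gives it. Small RNA rows lie within Odc1 (Gm22748), Azin1 (Mir6951) and Oaz1 (Mir1982). Srm and Smox had no near-identical copy, and none of the 100-base stretches in the transcript checked for each recurred.

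Against this background each member was compared in 3 ways, all by edgeR's quasi-likelihood test with Benjamini-Hochberg adjustment over all genes tested and a threshold of 0.05. In sorted libraries, shFgf21 over shNC, 0 of 10 members passed, where 0.079% of 16454 genes did. At an unadjusted p under 0.05 there was 1 member, Odc1, where 11.2% of all genes had such a p, so this share was at the background. The DESeq2 Wald test called Odc1 alone among the members, where it called 1.47% of genes with an adjusted p. The groups did not overlap for 4 members, against 29.7% of all genes, so that share was near the background. The median log2 fold change of the members was 0.06 and that of all genes -0.01. In tumours, shFgf21 over shNC, 0 of 10 members passed where 0.0334% of 14950 genes did, with 3 members at an unadjusted p under 0.05, against 6.22% of all genes. The DESeq2 Wald test called 1 member, Amd1, and 0.77% of all genes. Those counts and the call of Amd1 come from the comparison that led to the choice, and nothing is read from them. The comparison of shNC sorted over shNC tumour libraries uses the shNC tumour values that led to the choice of Amd1, so Amd1 is described there without a test. Of the 9 other members 5 passed, 3 higher and 2 lower, where 20.3% of 17327 genes passed higher and 13.1% lower. Without shNC tumour replicate 1, whose Odc1 level stood apart from its group, 5 of the 9 passed as well, with Odc1 in and Sms out.

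**Figure D1:**
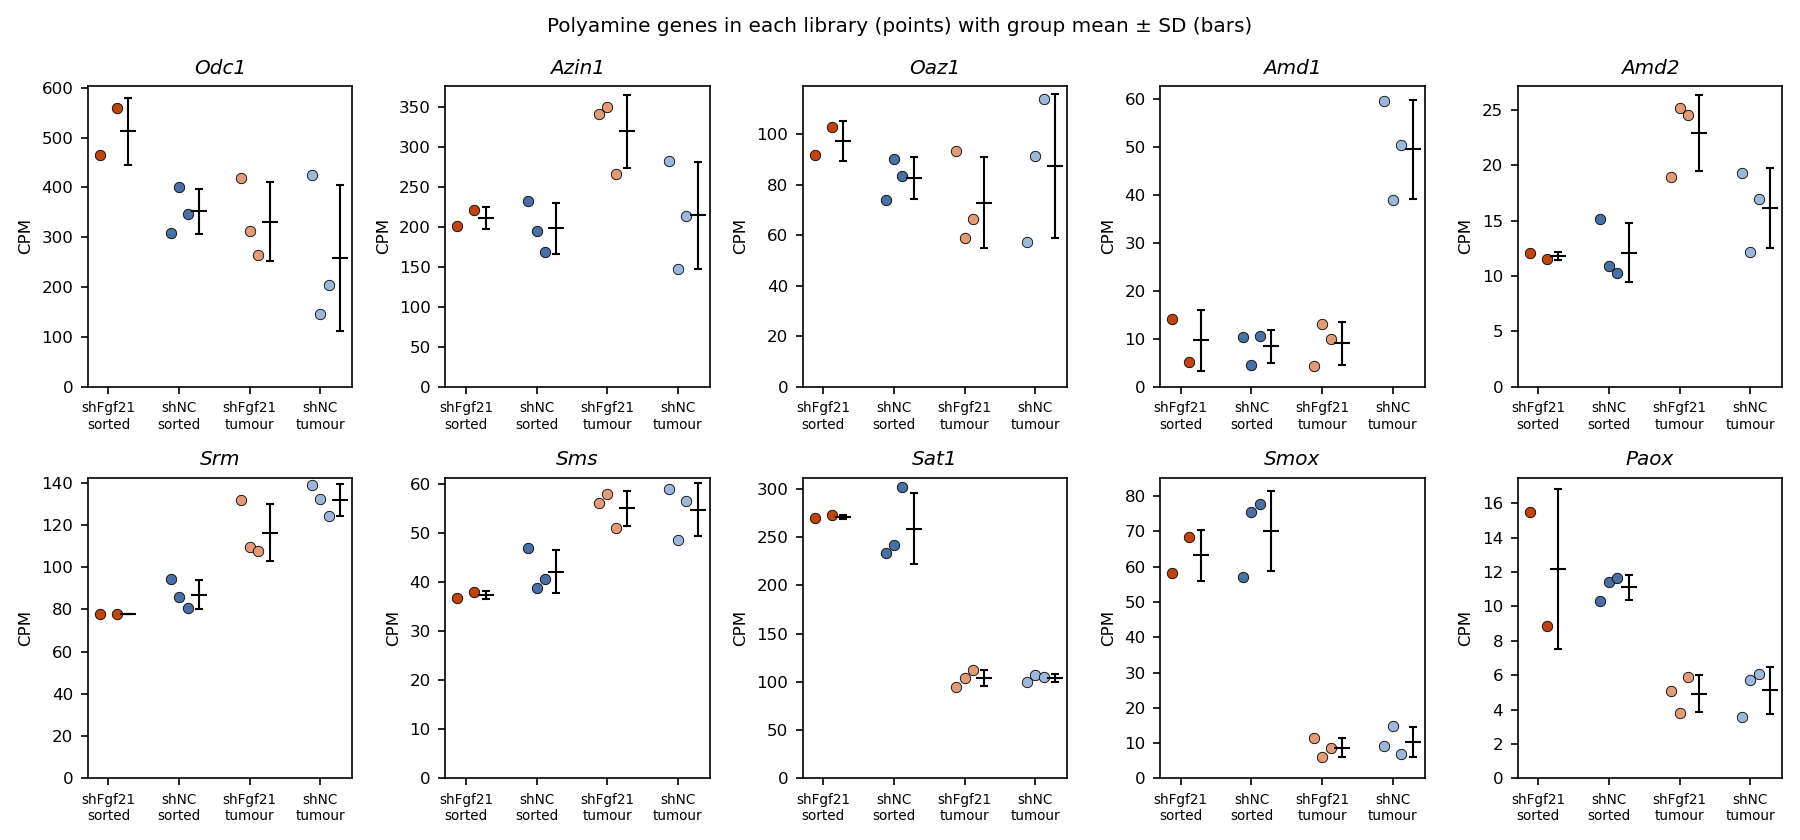
CPM of each polyamine gene (one panel a gene, each with its own axis from 0) in every library as points, with the group mean and SD as bars (n = 2 for shFgf21 sorted, n = 3 for each other group). Amd1 in shNC tumours sits between 38.9 and 59.5 CPM, above all 8 other libraries, while Sat1 and Smox in sorted libraries lie above all tumour libraries.

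Odc1 was the member with the largest difference in sorted libraries after the knockdown. It stood at 464 and 560.1 CPM in shFgf21 sorted libraries, against 309, 400.1 and 347 CPM in shNC sorted libraries. Both shFgf21 libraries lay above all 3 shNC libraries. The log2 fold change was 0.53 ± 0.13 (SE; edgeR quasi-likelihood, adjusted p = 0.257), which did not pass, while DESeq2 gave an adjusted p of 0.0383. With all 4 groups in one fit the SE was larger, at 0.55 ± 0.35 (edgeR quasi-likelihood, adjusted p = 0.959), and without shFgf21 sorted replicate 2 the log2 fold change was 0.39 (edgeR quasi-likelihood, adjusted p = 0.805). With its 5 near-identical rows added the log2 fold change was 0.50 ± 0.12 (edgeR quasi-likelihood, adjusted p = 0.243). In the same libraries the macrophage markers were also higher in shFgf21, as given above, and their part in this difference was not tested.

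In tumours Odc1 varied more within groups than between them. It was at 418, 312 and 264 CPM in shFgf21 tumours, against 425, 147 and 205 CPM in shNC tumours. One shNC tumour, replicate 1, lay above every shFgf21 tumour and the other two lay below all of them. The difference was 0.36 ± 0.36 on the log2 scale, and without that library 0.93. Between the kinds of sample, shNC sorted over shNC tumour, the log2 fold change was 0.44 ± 0.32 (edgeR quasi-likelihood, adjusted p = 0.327). Without shNC tumour replicate 1 it was 1.01 and passed (edgeR quasi-likelihood, adjusted p = 0.00396), so 1 library decided that call.

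Azin1, the antizyme inhibitor, was at 201 and 221 CPM in shFgf21 sorted libraries, against 232, 194 and 169 CPM in shNC sorted libraries. The groups overlapped, with a log2 fold change of 0.07 ± 0.14 (edgeR quasi-likelihood, adjusted p = 0.884). It was at 341, 350.2 and 266 CPM in shFgf21 tumours, against 282, 147 and 213 CPM in shNC tumours, and the lowest shFgf21 tumour fell within the shNC range. The tumour difference was 0.58 ± 0.24 on the log2 scale, given as a description. Between shNC sorted and shNC tumour libraries it was -0.12 ± 0.22 (edgeR quasi-likelihood, adjusted p = 0.727).

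Oaz1, the antizyme gene, was at 91.7 and 103 CPM in shFgf21 sorted libraries, against 73.9, 90.3 and 83.3 CPM in shNC sorted libraries. The lower shFgf21 library lay just above the highest shNC library, and the log2 fold change of 0.22 ± 0.11 did not pass (edgeR quasi-likelihood, adjusted p = 0.520). In tumours it was at 93.1, 58.9 and 66.4 CPM in shFgf21, against 57.3, 91.3 and 114 CPM in shNC, with overlapping ranges and a log2 difference of -0.26 ± 0.26. Its pseudogene row held more counts than the gene itself in every library, at 159 to 249 CPM. The Oaz1 row took only 24.9% to 31.5% of the counts of the pair in all libraries but shNC tumour replicate 6, where it took 41.8%. Without that library the log2 difference of the Oaz1 row in tumours was 0.0048. With Oaz1-ps added the tumour difference was 0.01 ± 0.17, and that between shNC sorted and shNC tumour libraries turned sign, with 0.13 ± 0.16 against -0.09 ± 0.23 for the row alone (edgeR quasi-likelihood, adjusted p = 0.552 and 0.800).

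Amd1 was low in all groups but shNC tumours. It had 199 and 76 counts in shFgf21 sorted libraries, against 156, 63 and 167 counts in shNC sorted libraries. In tumours it had 74, 212 and 173 counts in shFgf21, against 916, 793 and 1013 counts in shNC. Scaled to depth this was 9.06 ± 4.45 CPM in shFgf21 tumours and 49.6 ± 10.3 CPM in shNC tumours (SD, n = 3 each). The log2 fold change was -2.45 ± 0.37. Every shNC tumour lay above every other library, and no other pair of neighbours in the order of group means was free of overlap. Of the genes tested in tumours 11.7% had no overlap between groups, and among the members Amd1 alone had none. These values led to the choice of Amd1 and are no test of it.

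The other rows of the family did not share that pattern. Amd2 had 331, 410 and 429 counts in shFgf21 tumours, against 297, 249 and 341 counts in shNC tumours. Amd-ps3 had 401, 524 and 522 counts in shFgf21 tumours, against 417, 337 and 404 counts in shNC tumours. Both were somewhat higher in the knockdown, by 0.51 ± 0.22 and 0.43 ± 0.22 on the log2 scale, with overlapping ranges. Amd1 took 18.3% to 34.1% of the Amd1 and Amd2 counts in shFgf21 tumours, against 74.8% to 76.1% in shNC tumours. The lowest of these shares had a 95% Wilson interval of 14.8% to 22.3% and the highest one of 73.4% to 78.6%, which cover counting error only.

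Adding the rows together reduced the log2 difference, as adding similar counts to both groups does in any case. For Amd1 and Amd2 summed, the tumour log2 difference was -1.03 ± 0.23, and for all near-identical rows it was -0.51 ± 0.22. On the scale of CPM the whole family was at 47.0, 71.4 and 64.9 in shFgf21 tumours, against 106, 68.1 and 88.0 in shNC tumours. The family mean stayed lower in the knockdown, at 61.1 ± 12.6 CPM against 87.5 ± 19.2 CPM (SD, n = 3 each). The Amd1 row alone was at 9.06 CPM against 49.6 CPM. The ranges of the summed family overlapped, while those of the Amd1 row did not. Amd1 itself took 9.02% to 18.2% of the family's counts in shFgf21 tumours, against 55.9% to 57.3% in shNC tumours. How far the counting of shared reads sets that split was not tested, since the reads themselves were not used here.

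**Figure D2:**
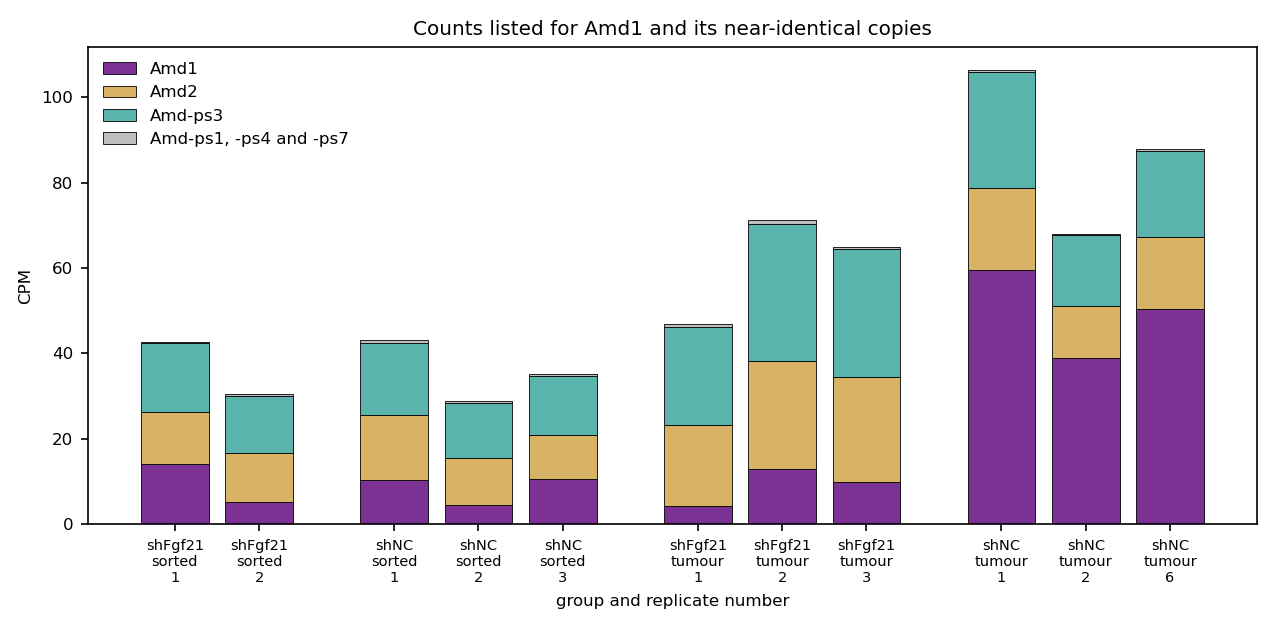
CPM of Amd1, Amd2, Amd-ps3 and 3 minor pseudogenes, stacked for each of the 11 libraries. The Amd1 part is largest in the 3 shNC tumours, while the total of 47.0 to 71.4 CPM in shFgf21 tumours overlaps that of 68.1 to 106 CPM in shNC tumours.

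In sorted libraries the Amd1 levels of the 2 lines overlapped. The levels were 14.2 and 5.19 CPM in shFgf21, against 10.4, 4.48 and 10.6 CPM in shNC, and both groups held a low and a high library. The log2 fold change was 0.17 ± 0.47 (edgeR quasi-likelihood, adjusted p = 0.927), and leaving out single libraries moved it between -0.73 and 0.72. With all near-identical rows added it was 0.02 ± 0.21. For Amd2 the levels were 12.1 and 11.5 CPM in shFgf21, against 15.2, 10.9 and 10.2 CPM in shNC, a log2 fold change of -0.06 ± 0.21 (edgeR quasi-likelihood, adjusted p = 0.948). Amd1 took 31.0% to 54.1% of the Amd1 and Amd2 counts in shFgf21 sorted libraries, against 29.0% to 50.8% in shNC sorted libraries.

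Amd1 was at 8.49 ± 3.47 CPM in shNC sorted and 49.6 ± 10.3 CPM in shNC tumour libraries (SD, n = 3 each). The log2 difference was -2.55 ± 0.46 for the Amd1 row, -1.68 with Amd2 added and -1.30 with all near-identical rows. These 3 values are a description, since the high shNC tumour counts led to the choice of Amd1 and remain in both sums. Amd2 alone differed by -0.42 ± 0.22 and did not pass (edgeR quasi-likelihood, adjusted p = 0.164). Markers of macrophages and T cells move with this comparison, as given above, and their part in it was not tested.

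**Figure D3:**
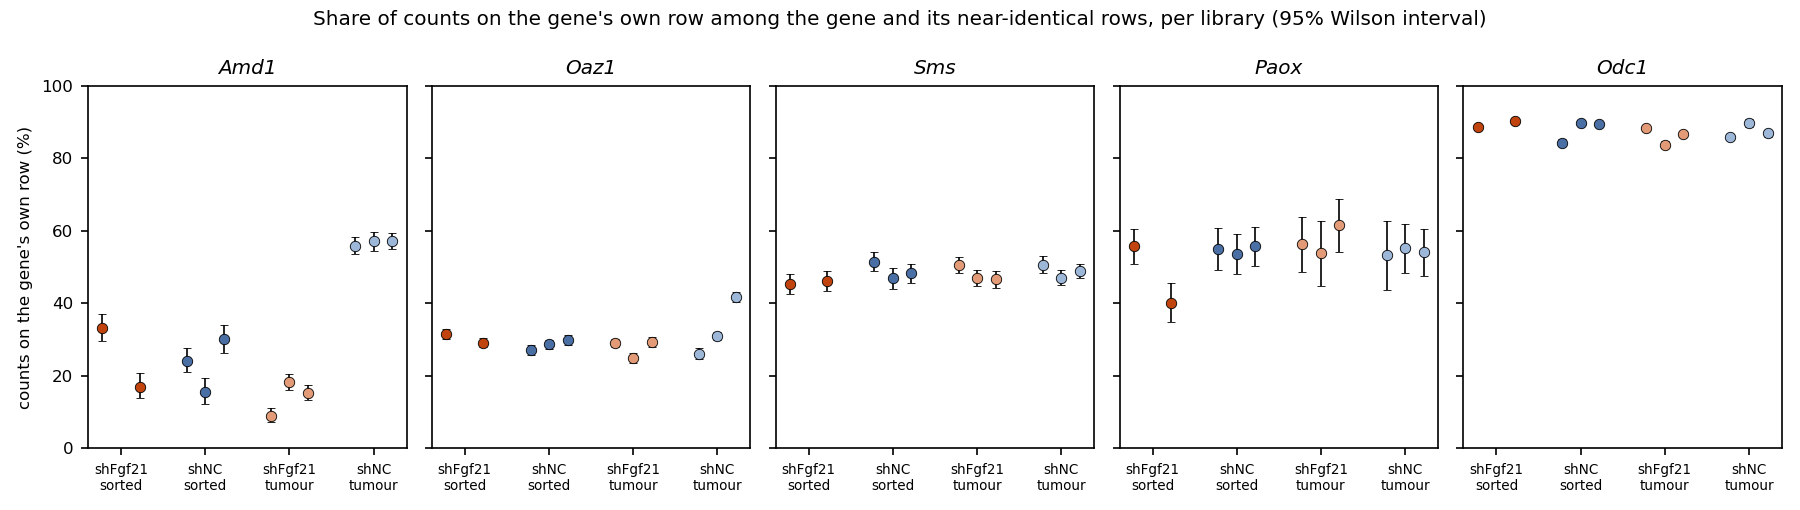
Percent of counts that fall on the gene's own row among the gene and its near-identical rows, for 5 genes in each library, with 95% Wilson intervals for counting error. For Amd1 the 3 shNC tumours lie at 55.9% to 57.3% and the other 8 libraries at 9.02% to 33.2%, whereas Sms stays between 45.3% and 51.5% in all libraries.

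Both aminopropyl transferase genes were slightly lower in shFgf21 sorted libraries without passing the test. Srm, spermidine synthase, was at 77.8 and 78.0 CPM in shFgf21, against 94.5, 85.7 and 80.8 CPM in shNC, a log2 fold change of -0.18 ± 0.11 (edgeR quasi-likelihood, adjusted p = 0.589). Sms, spermine synthase, was at 36.7 and 37.9 CPM in shFgf21, against 47.0, 38.8 and 40.6 CPM in shNC, a log2 fold change of -0.19 ± 0.13 (edgeR quasi-likelihood, adjusted p = 0.614). Neither pair of groups overlapped, though the highest shFgf21 and the lowest shNC library were close for both, and with its copies added Sms differed by -0.09 ± 0.10. Srm has no near-identical row, although 2.4% of the 50-base stretches in its checked transcript occur in another gene's transcript.

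In tumours Srm was at 132, 109.5 and 108 CPM in shFgf21, against 139, 132 and 124 CPM in shNC. Sms was at 56.1, 57.9 and 51.1 CPM in shFgf21 tumours, against 59.1, 48.7 and 56.5 CPM in shNC tumours. Both overlapped between groups, with log2 differences of -0.17 ± 0.13 and 0.02 ± 0.14. Between the kinds of sample both were lower in shNC sorted than in shNC tumour libraries. Srm averaged 87.0 ± 6.95 CPM in sorted and 132 ± 7.48 CPM in tumour libraries (SD, n = 3 each). Its log2 fold change was -0.60 ± 0.11 (edgeR quasi-likelihood, adjusted p = 0.00146). Sms differed by -0.38 ± 0.13 (edgeR quasi-likelihood, adjusted p = 0.0370) and with Sms-ps and its other copies added by -0.37 (edgeR quasi-likelihood, adjusted p = 0.0158). For Sms alone the call was lost in 8 of the alternatives tried, with adjusted p from 0.0511 to 0.145 (edgeR quasi-likelihood), among them leaving out shNC sorted replicate 2 or 3 or shNC tumour replicate 1 or 6.

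The 3 genes of polyamine breakdown were all higher in shNC sorted than in shNC tumour libraries, and none passed the test between knockdown and control. Smox, spermine oxidase, had the largest difference. It was at 57.1, 75.6 and 77.8 CPM in shNC sorted libraries, against 9.10, 14.97 and 6.91 CPM in shNC tumours. The log2 fold change was 2.76 ± 0.28 (edgeR quasi-likelihood, adjusted p = 1.29e-05), and the gene has no near-identical row. Sat1, the acetyltransferase, was at 234, 242 and 302 CPM in shNC sorted libraries, against 99.5, 107 and 105 CPM in shNC tumours. Its log2 fold change was 1.31 ± 0.12 (edgeR quasi-likelihood, adjusted p = 3.45e-06).

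Paox, polyamine oxidase, was at 10.3, 11.4 and 11.6 CPM in shNC sorted libraries, against 3.57, 5.69 and 6.07 CPM in shNC tumours. The log2 fold change was 1.11 ± 0.26 (edgeR quasi-likelihood, adjusted p = 0.00652), and 1.10 with Gm19680 added (edgeR quasi-likelihood, adjusted p = 0.00126). shNC sorted and shNC tumour libraries did not overlap for any of these 3 genes nor for Srm and Sms, against 46.0% of all genes. Macrophage markers, which summed to 11449 to 14218 CPM in shNC sorted and 33.9 to 47.8 CPM in shNC tumour libraries, move with these genes, and their part in the result was not tested.

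After the knockdown, Sat1 was at 269.9 and 273 CPM in shFgf21 sorted libraries, inside the shNC sorted range, with a log2 fold change of 0.05 ± 0.12 (edgeR quasi-likelihood, adjusted p = 0.907). Smox was at 58.1 and 68.4 CPM in shFgf21 sorted libraries, also inside the shNC range, with a log2 fold change of -0.16 ± 0.15 (edgeR quasi-likelihood, adjusted p = 0.730). Paox was at 15.5 and 8.88 CPM in shFgf21 sorted libraries, one above and one below all shNC sorted libraries, with a log2 fold change of 0.11 ± 0.24 (edgeR quasi-likelihood, adjusted p = 0.891). The Paox library at 8.88 CPM also gave the lowest share of counts on the Paox row, 40.1%, against 53.4% to 61.7% in the other 10 libraries. In tumours Sat1 was at 95.2, 104 and 112 CPM in shFgf21, against 99.5, 107 and 105 CPM in shNC. Smox was at 11.4, 6.02 and 8.59 CPM and Paox at 5.10, 3.81 and 5.90 CPM in shFgf21 tumours, against the shNC tumour values given above and overlapping them, with log2 differences of 0.01, -0.23 and -0.04 for Sat1, Smox and Paox.

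**Figure D4:**
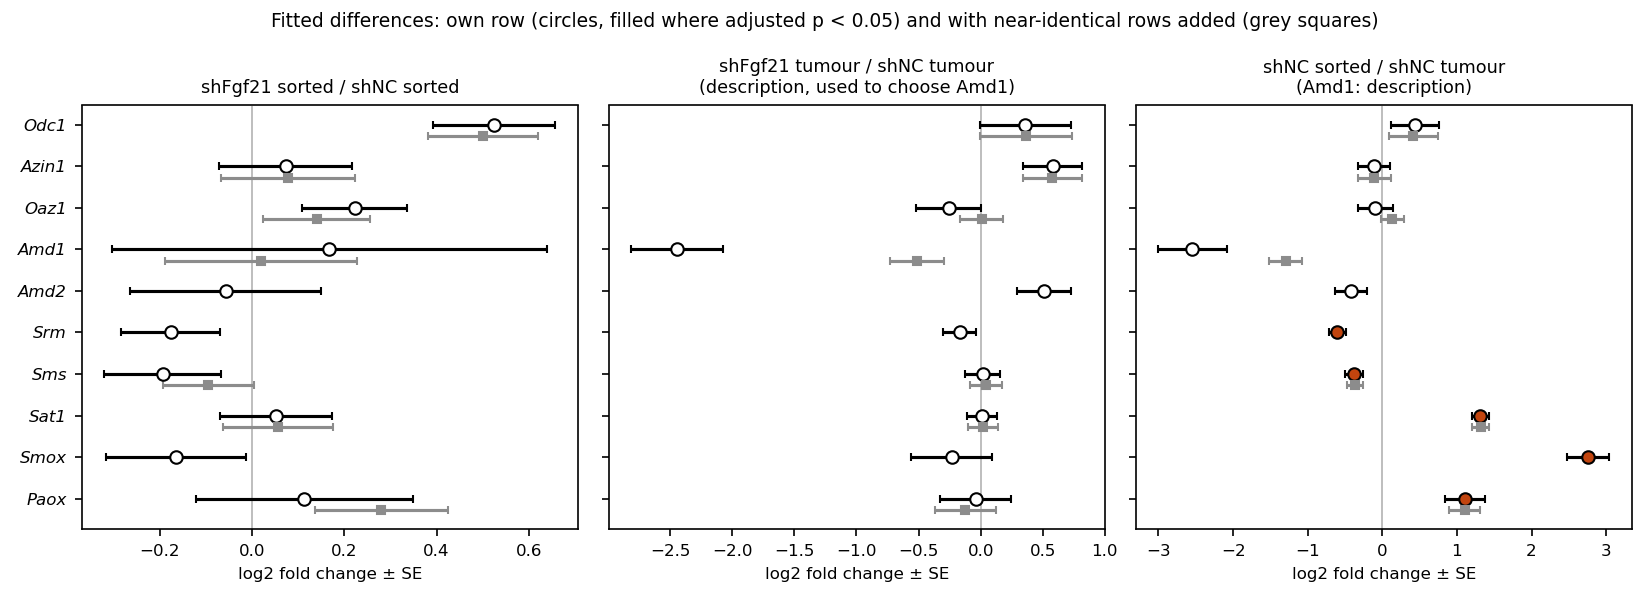
Log2 fold change with its SE for each polyamine gene in the 3 comparisons, as circles for the gene's own row (filled where the edgeR quasi-likelihood adjusted p was under 0.05) and grey squares with near-identical rows added. Each panel has its own axis, and the tumour panel, at -2.45 for Amd1 and -0.51 with its copies, is a description, as is Amd1 in the panel of shNC sorted over shNC tumour.

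Per length, on the deposited FPKM scale, the order of the members differed between the kinds of sample. Odc1 was at 67.6 ± 8.21 FPKM in shFgf21 sorted and 48.7 ± 5.42 FPKM in shNC sorted libraries (SD, n = 2 and n = 3), beside Sat1 at 50.6 ± 0.15 FPKM in shFgf21 sorted and 50.6 ± 6.88 FPKM in shNC sorted libraries. Srm had the highest mean in tumours, at 62.8 ± 6.15 FPKM in shFgf21 and 71.9 ± 2.33 FPKM in shNC (SD, n = 3 each), where Sat1 was at 22.3 ± 2.24 FPKM in shFgf21 and 22.5 ± 1.38 FPKM in shNC. Amd1 was among the lowest members, at 1.77 ± 1.18 FPKM in shFgf21 sorted and 1.63 ± 0.68 FPKM in shNC sorted libraries. It was at 1.90 ± 0.95 FPKM in shFgf21 tumours and 10.5 ± 2.0 FPKM in shNC tumours. These levels divide by gene lengths implied by the deposited table and inherit the split between copies. Sms-ps, for one, was at 36.6 ± 0.58 FPKM in shFgf21 sorted and 38.0 ± 1.0 FPKM in shNC sorted libraries, where Sms itself was at 4.48 ± 0.05 FPKM in shFgf21 and 5.32 ± 0.66 FPKM in shNC.

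Of 41 other genes around the route, in 6 lists, 33 were tested in sorted libraries and 32 in tumours. In the sorted comparison edgeR's quasi-likelihood test called 0 of 33, as did the DESeq2 Wald test, and 4 had an unadjusted p under 0.05 (Nos2, Oaz2, Slc7a1 and Atp13a2), a share near the 11.2% of all genes. Among genes with a mean of at least 10 CPM, those of the ornithine and arginine list with the largest difference were Arg1, the arginase of macrophages, at -0.39 ± 0.19, Nos2, inducible nitric oxide synthase, at 0.39 ± 0.12, and Ass1, argininosuccinate synthase, at 0.39 ± 0.19 on the log2 scale. Oaz2, another antizyme, was at 27.9 and 28.6 CPM in shFgf21 sorted libraries, against 19.5 to 21.8 CPM in shNC sorted libraries, a log2 fold change of 0.44 ± 0.12 (edgeR quasi-likelihood, adjusted p = 0.282). Among transporters Slc7a1, which carries arginine and ornithine, and Atp13a2, a lysosomal polyamine exporter, both stood at 0.29 ± 0.12 and Slc3a2 at 0.20 ± 0.11, none passing. Above the same mean the largest differences in the methionine list were those of Enoph1, Adi1 and Mat2a, at -0.23, -0.21 and -0.19, while Apip, below it, differed by 0.31 ± 0.17. The largest in the hypusination list, whose enzymes use spermidine to modify eIF5A, were those of Dhps, Dohh and Eif5a2, at -0.16, 0.11 and 0.11. Myc and its partner Max stood at 0.04 and 0.05.

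In tumours, given as a description, 0 of the 32 genes passed by edgeR's quasi-likelihood test. At an unadjusted p under 0.05 there were 2, Arg1 and Slc7a2, against 6.22% of all genes, and the DESeq2 Wald test called Slc7a2. Slc7a2 was at 0.344 to 0.687 CPM in shFgf21 tumours, against 1.79 to 8.58 CPM in shNC tumours, a log2 difference of -3.17 ± 0.60. Arg1 was at 0.491 to 1.09 CPM in shFgf21 tumours, against 1.44 to 3.38 CPM in shNC tumours, a log2 difference of -1.69 ± 0.45. Neither gene overlapped between groups, and both levels rest on few counts. The ornithine genes at 10 CPM or more with the largest log2 differences were Nos2 at -0.43, Aldh18a1, which makes the proline and ornithine precursor, at -0.32, and Azin2, another antizyme inhibitor, at -0.28. Dhps, deoxyhypusine synthase, differed by -0.41 ± 0.19, Atp13a2 by -0.38 ± 0.22, Slc3a2 by -0.30 ± 0.21, Slc7a5 by -0.23 ± 0.17 and Eif5a2 by 0.33 ± 0.21, each with overlapping groups. Ahcy, which clears S-adenosylhomocysteine, was at 68.0 to 76.2 CPM in shFgf21 tumours, against 61.9 to 65.7 CPM in shNC tumours, a difference of 0.21 ± 0.12 without overlap. Mat2a, Mri1, Oaz2, Eif5a, Max and Myc differed by 0.20, -0.18, 0.21, 0.12, 0.20 and 0.16.

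Between the kinds of sample 15 of 33 of these genes passed, 8 higher and 7 lower in shNC sorted than in shNC tumour libraries, where 33.4% of all genes passed. Arg1 was at 1515 to 2405 CPM in shNC sorted libraries, against 1.44 to 3.38 CPM in shNC tumours, a log2 fold change of 9.61 ± 0.34 (edgeR quasi-likelihood, adjusted p = 2.4e-09). Nos2 differed by 3.65 ± 0.40 and Ass1 by 2.45 ± 0.24, both passing, and Slc7a2, an arginine and ornithine carrier, by 5.68 ± 0.42, named after its value was seen. Atp13a2 rose by 2.78 ± 0.20, and Max rose by 0.68 ± 0.23. Lower in shNC sorted libraries were Slc7a5, part of a large amino acid carrier, at -1.09 ± 0.15, Aldh18a1 at -0.93 ± 0.13, Slc7a1 at -0.90 ± 0.19, Mtap, which salvages methylthioadenosine, at -0.78 ± 0.13, Myc at -0.62 ± 0.17 and Ahcy at -0.36 ± 0.11. No gene of the antizyme and hypusination lists passed. Their largest differences were Oaz2 at -0.49 ± 0.20, Dhps at -0.40 ± 0.16, Eif5a2 at -0.33 ± 0.18 and Dohh at 0.23 ± 0.22. Mtr of the methionine list, at 0.45 ± 0.17, did not pass either.

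**Figure D5:**
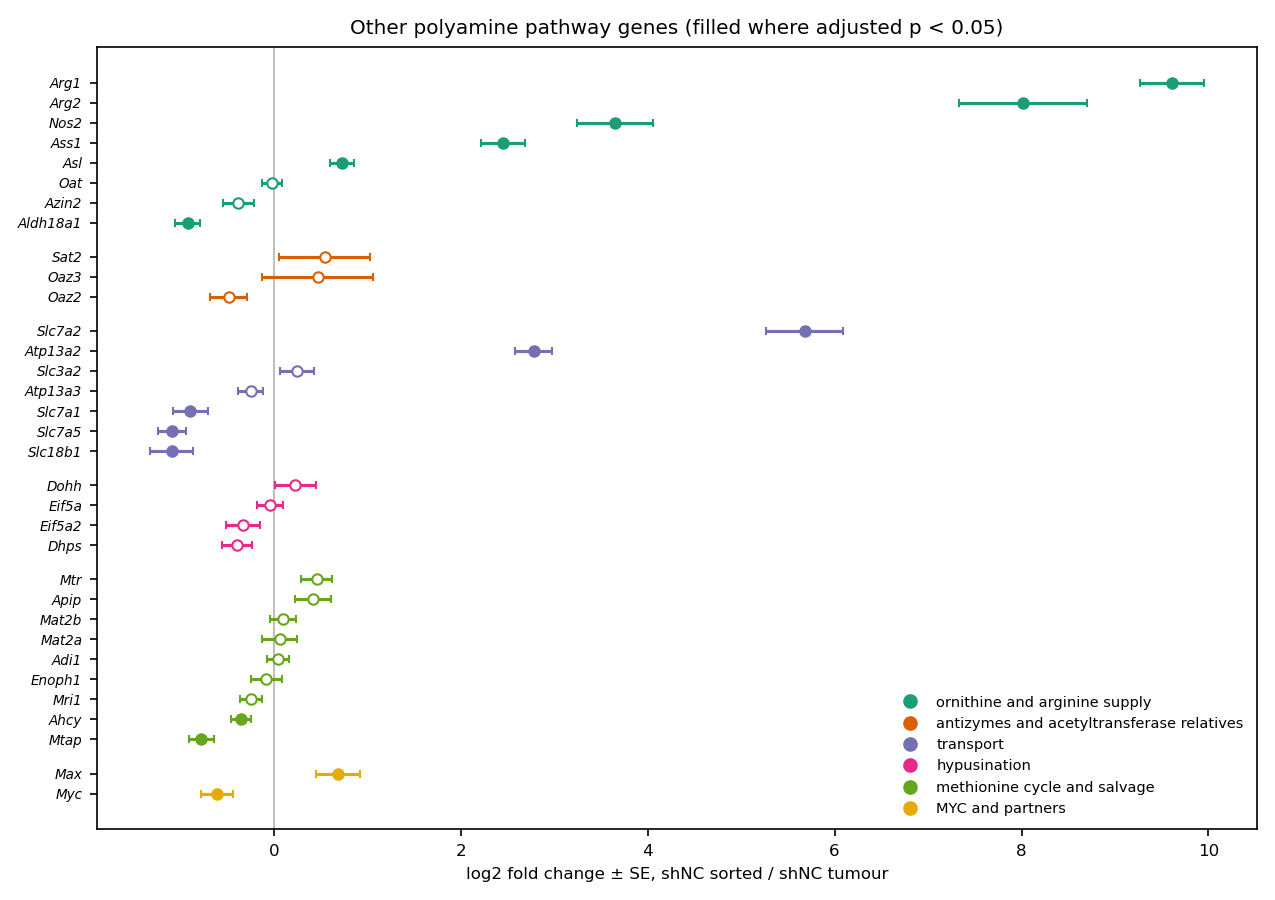
Log2 fold change with SE, shNC sorted over shNC tumour libraries, for the 33 tested genes of 6 lists around the polyamine route, coloured by list and filled where the edgeR quasi-likelihood adjusted p was under 0.05. Arg1 lies farthest up, at 9.61, and Slc7a5 near the low end, at -1.09.

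The genes nearest to Amd1 in their pattern over the 11 libraries were ranked by likeness, which was the root mean square difference of log2 CPM after subtracting the shNC mean of the same kind of sample, over 10295 genes with a mean of at least 10 CPM, for which the median gene stood at 1.46. Nearest in the same direction were Eif4e3, a member of the cap-binding factor family, at 0.67, Eif2s3y, a Y-linked initiation factor subunit, at 0.69 and Ch25h, cholesterol 25-hydroxylase, at 0.72. All 3 reached at most 1.36 CPM in any tumour, so their tumour values rest on few counts, unlike those of Amd1. They met the mean of 10 CPM only through the sorted libraries, where they stood at 21.4 to 89.8 CPM, while Amd1 was highest in shNC tumours. The ranking also uses the tumour values that led to the choice of Amd1, so it is a description only. Nearest with the sign turned were Lrch4 at 0.72, AW112010 at 0.83 and Il2rg, the shared gamma chain of interleukin receptors, at 0.89. Lrch4 was at 26.1, 32.7 and 28.7 CPM in shFgf21 tumours, against 6.63, 2.41 and 3.53 CPM in shNC tumours. Il2rg was at 54.6 to 72.1 CPM in shFgf21 tumours, against 24.2 to 33.1 CPM in shNC tumours. AW112010 was low in tumours, at 2.58 to 4.53 CPM in shFgf21 against 0.834 to 1.75 CPM in shNC. It too met the mean of 10 CPM only through the sorted libraries, at 140 to 208 CPM.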

How the data were processed

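The authors deposited 1 table with whole-number counts per gene and FPKM values for the same 11 libraries. The genome build is mm10 per the submitters' processing notes. For the aligner, the counting program, the handling of reads that match several genes, the strandedness and the annotation, the sources used here give nothing. The deposited FPKM values equal counts divided by a fixed length per gene and by library total, to within 0.000844% over 9655 genes, and were used only for levels between genes.

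Counts were analysed in R 4.3.3 with edgeR 4.0.16 (TMM factors, filterByExpr, quasi-likelihood F-test, Benjamini-Hochberg adjustment over all genes tested, threshold 0.05). Each knockdown comparison used libraries of 1 kind of sample, and shNC sorted over shNC tumour used all 4 groups in 1 fit. Standard errors are the log2 fold change over the square root of F. CPM values use TMM factors over 11 libraries, while fold changes use those of their own fit. All 10 members passed the filter on low counts in every comparison. Separate animals are not stated by the labels, and p-values then reflect only how these libraries scatter, which may be technical. Intervals are 95% Wilson intervals.

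Copies were found with BLAST 2.17.0 against GENCODE M21 transcripts, and the gene loci of the table equal that annotation's for 9 of 10 members (the listed Amd1 locus ends 2 bases further). Upstream sequences are RefSeq's, and 8 of 10 members have an entry in that table. Members and lists were chosen with earlier results of these data known, and adding copies for genes other than Amd1 was chosen after seeing the data. Named were all members, copies and overlapping rows with at least 10 counts, and, per pathway list, the 3 genes with the largest log2 fold change at a mean of at least 10 CPM, a rule extended to the comparison of kinds of sample after its values were seen. Apip, in tumours Arg1 and Slc7a2, and between the kinds of sample Aldh18a1 and Slc7a1, fell outside it and were named after their values were seen. Alternatives were median-ratio size factors, no filter, a mean of at least 5 CPM, the DESeq2 1.42.0 Wald test, another set of groups in the fit, the replicate number as a block in tumours, rows added together, and leaving out each library.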

Additional observations from a re-analysis of the deposited data

How the results depend on the processing

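In sorted libraries the count of genes that passed was 13, and it was 1 with no filter, 1 with all 4 groups in one fit, 232 with DESeq2, and 0 to 34 when single libraries were left out, with 0 without shFgf21 replicate 2 and 1 without shFgf21 replicate 1. In tumours it was 5, against 1 with a mean of at least 5 CPM, 26 with all 4 groups, 115 with DESeq2, and 0 to 8 when single libraries were left out, with 0 without shNC replicate 6 or shFgf21 replicate 3. For the kinds of sample it was 4542 to 5781 with single libraries left out. With the replicate number as a block in tumours 131 genes passed and the Amd1 difference was -2.64. A number found in a single group adds nothing to such a difference, and few libraries remain to set the spread, so that count is not comparable. The tumour groups share only the numbers 1 and 2, so the block difference rests on these. Their libraries deviated together at r = 0.165 and apart at r = -0.153 across 14950 genes. Libraries with different numbers gave r from -0.251 to 0.165, so these values cannot decide whether the numbers mark pairs. Numbers of sorted libraries were given by accession order and pair nothing.

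The tumour Amd1 value moved to -1.03 with Amd2 added and to -0.51 with all near-identical rows, and stayed between -2.80 and -2.10 with single libraries left out. Leaving out single libraries turned the sign of differences near 0. In tumours these were Sms (-0.069 to 0.082), Sat1 (-0.045 to 0.075), Oaz1 (-0.48 to 0.0048), Smox (-0.47 to 0.12) and Paox (-0.23 to 0.12). In sorted libraries they were Amd1 (-0.73 to 0.72), Amd2 (-0.17 to 0.15), Sat1 (-0.011 to 0.17), Azin1 (-0.038 to 0.21) and Paox (-0.34 to 0.46), and between kinds of sample Azin1 (-0.33 to 0.15) and Oaz1 (-0.30 to 0.16). Oaz1 also turned with Oaz1-ps added (0.13). The cause of these moves was not tested. Between kinds of sample, Amd2 passed without shNC tumour replicate 2 (-0.59, adjusted p = 0.0439), and Srm, Sat1, Smox and Paox passed under every alternative run. Paox had 55 to 217 counts per library and Amd1 63 to 212 outside shNC tumours, so counting error limits their values more than those of Odc1 or Sat1.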
